A study of Mus musculus with 12 samples.

Results

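The genes described here are 37 mouse genes that make and handle sterols and fatty acids, of 35385 gene symbols measured. They are enzymes of the mevalonate, sterol and fatty acid pathways, the SREBP2 regulators and 2 targets of the liver X receptors (LXR). The list is one of gene names and uses no measured value as a threshold, but it was drawn up with earlier results of these libraries known, so the shares of it that passed a test are a description. All 37 were found, and all 37 passed the filter on low values. They were measured by poly(A) RNA sequencing in oligodendrocyte progenitor cells (OPCs), the precursors of myelin-forming cells, grown from mouse pluripotent stem cells (mPSC); the labels name no cell line, strain or genotype. After 1 h of attachment in a medium permissive for differentiation, the cells spent 4 h with CPC (cetylpyridinium chloride, a pyridinium ring with a long alkyl chain), with AEBDAC (C12-C14-alkyl(ethylbenzyl)dimethylammonium chloride, with a ring in its ethylbenzyl group besides an alkyl chain), with MTOAC (methyltrioctylammonium chloride, which carries octyl chains and no ring) or with the vehicle, dimethyl sulfoxide (DMSO). The groups are called CPC, AEBDAC, MTOAC and Vehicle. Each compound, all of them quaternary ammonium salts, was given at its own IC75, and the labels do not give the concentrations. Each group had 3 libraries numbered 1 to 3, which the labels do not place in separate cultures. Whether the spread that the p-values rest on is technical or between cultures is therefore not known. Some genes, Gja1 and Srebf1 among them, followed the library number in every group, as given below.

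Cells build cholesterol from acetyl-CoA through mevalonate and isoprenoid phosphates to squalene, and then through lanosterol and a chain of demethylation, reduction and isomerisation steps. When sterol in the endoplasmic reticulum runs low, the escort protein SCAP carries SREBP2 to the Golgi for cleavage, and the released factor switches on nearly every enzyme of the pathway, while INSIG1 holds SCAP back when sterol is plentiful. SREBP1 does the like for fatty acid genes. Surplus sterol is turned to oxysterols that activate LXR and so raise export genes such as Abca1. Oligodendrocytes make large amounts of cholesterol and long-chain fatty acids for myelin.

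The values are TPM, a unit that corrects for transcript length and so allows levels to be compared between genes. Their sums lay between 772637 and 797758 TPM a library, and the read depth is unknown beyond a stated minimum of 20 M reads. Vehicle 1 stood apart, with 86422 TPM from mitochondrially encoded genes against 147539 to 183001 TPM in the other 11 libraries, and it was the highest of the 12 libraries for 19 of the 37 genes (51.4%) and for 41.2% of the 12009 genes tested. The 6 OPC markers looked at were all detected. Their summed level was 1497 to 1657 TPM with CPC, 1407 to 1655 TPM with AEBDAC and 1199 to 1310 TPM with MTOAC, against 1862 to 2249 TPM with Vehicle. Olig1 was the largest part of that sum in every library, at 1016 to 1284 TPM with Vehicle and 456 to 613 TPM with MTOAC. Olig1 and Pdgfra were lower in every compound library than in every Vehicle library. Olig2, Sox10, Cspg4 and Ptprz1 overlapped between Vehicle and each compound, and Ptprz1 was highest in MTOAC 3, at 415 TPM. MTOAC lowered 2 of those 6 markers and AEBDAC 1, where 5.75% and 0.883% of all tested genes were lowered. Of 6 neuronal markers the summed level, mostly from Map2, was 324 to 389 TPM with CPC, 307 to 345 TPM with AEBDAC and 258 to 341 TPM with MTOAC, against 424 to 470 TPM with Vehicle. Of 6 markers of myelinating oligodendrocytes, mostly Cnp with Mog at 0 throughout, it was 37.2 to 50.8, 36.1 to 51.3 and 35.3 to 46.2 TPM, against 52.4 to 73.5 TPM. MTOAC lowered 1 gene of each list, Map2 and Cnp. The sums of 6 astrocyte markers overlapped between the groups and none was called, and of 6 microglial and 6 mesenchymal markers none reached the level needed for testing. The part of these marker differences in the results below was not tested, and in such bulk libraries fewer cells of a type and less RNA per cell cannot be told apart.

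In Vehicle the 37 genes spanned a wide range of levels. Scd2, the main stearoyl-CoA desaturase of the brain, stood highest at 875 ± 104 TPM (SD, n = 3), followed by Hmgcs1 at 851 ± 161 TPM and Idi1 at 365 ± 119 TPM. In all, 13 genes averaged over 100 TPM in Vehicle, 18 between 10 and 100 TPM and 6 under 10 TPM, the lowest of them Abca1 at 1.29 ± 0.325 TPM. Within groups the genes varied about as much as others: the median SD within groups was 0.29 on the log2(TPM + 1) scale for the 37 genes and 0.30 for all tested genes. Msmo1, Ebp, Me1 and Elovl5 had an SD above the 90th percentile of all tested genes, 0.71. Ebp was listed at 0 in CPC 1 and Elovl5 in 7 libraries.

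**Figure D1:**
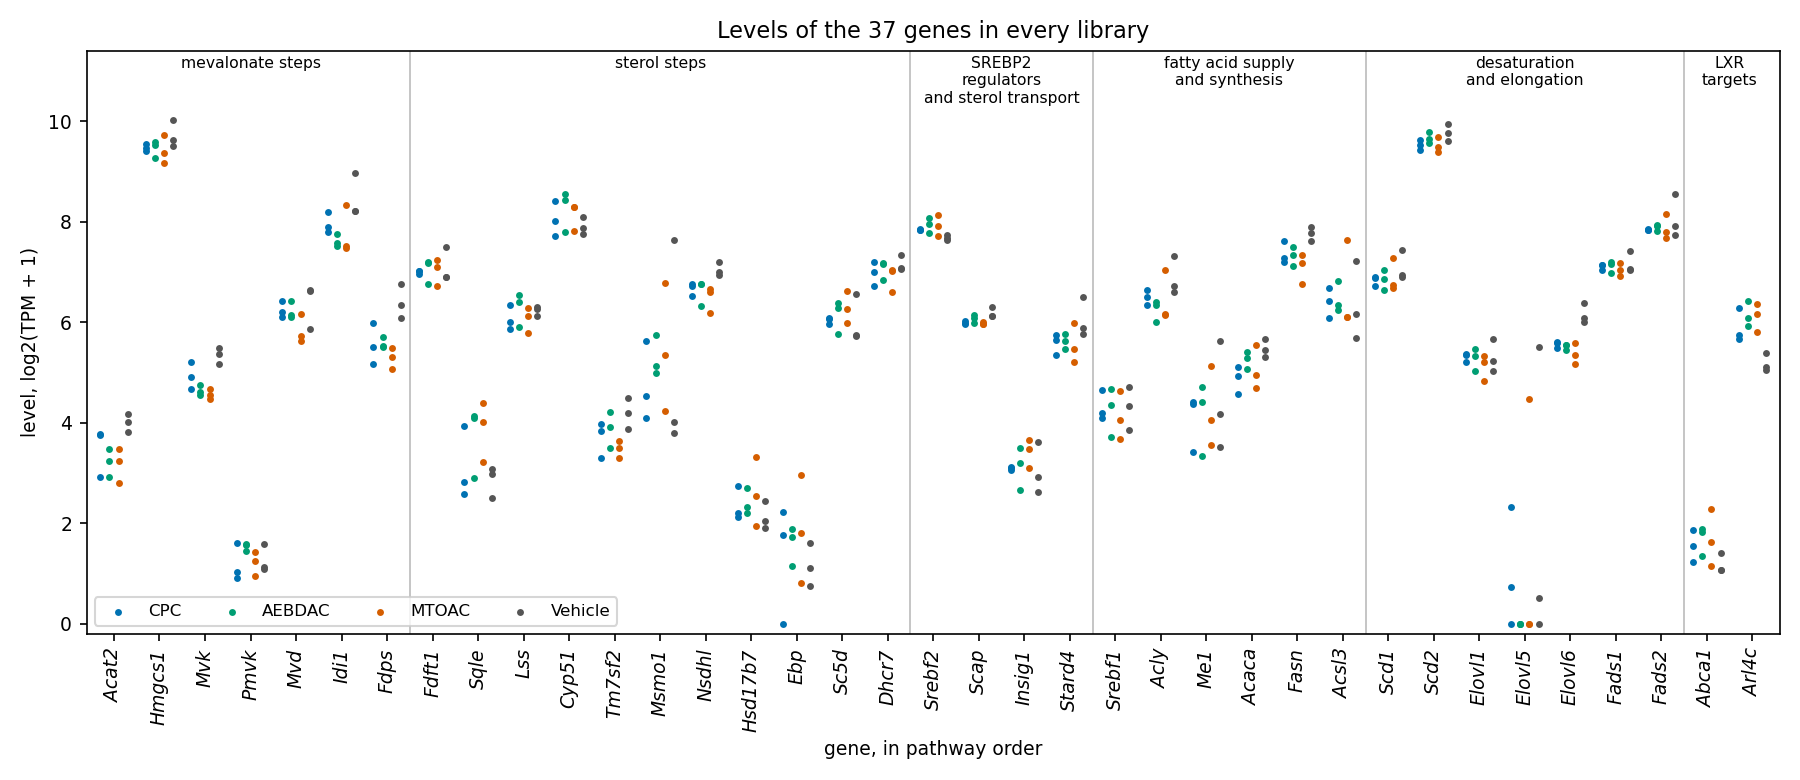
Level of each of the 37 genes in every library, as log2(TPM + 1), in pathway order from left to right. Each point is 1 library, coloured by group (CPC, AEBDAC, MTOAC, Vehicle). For most genes the points of the groups overlap, while Mvk, Fdps and Elovl6 lie lower and Arl4c higher in the MTOAC libraries than in the Vehicle libraries.

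MTOAC lowered 4 of the 37 genes and raised 1. The 4 lower genes were Mvk and Fdps of the mevalonate pathway, Fasn, the fatty acid synthase, and Elovl6, a fatty acid elongase, with fitted differences from -0.67 to -1.11 on the log2(TPM + 1) scale. The gene that rose was the LXR target Arl4c. A gene is said here to have risen or fallen, or to be called, at a limma adjusted p under 0.05, with Benjamini-Hochberg adjustment over all 12009 tested genes. The 5 calls are 13.5% of the 37 genes, against 6.54% of all tested genes, and the 4 lower ones are 10.8%, against 5.75% of all tested genes, while the higher one is 2.7%, against 0.791%. With quantile normalization 2 of the 37 were called, Elovl6 lower and Arl4c higher, and 213 tested genes were higher and 217 lower, against 95 higher and 690 lower without it. Without the filter 3 of the 37 were called, Fasn and Arl4c being lost, and 404 of all genes fitted. A fit restricted to these 2 groups called none of the 37 and 17 of all tested genes.

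AEBDAC lowered Elovl6 and raised Arl4c, 2 of the 37 genes (5.41%) against 1.27% of all tested genes. By direction this was 1 lower gene (2.7%) against 0.883% of all tested genes, and 1 higher gene (2.7%) against 0.391%. Neither call survived leaving out any 1 of the 6 AEBDAC and Vehicle libraries, as detailed with each gene. Over all tested genes 47 were higher and 106 lower with AEBDAC, or 96 higher and 86 lower with quantile normalization.

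With CPC none of the 37 genes was called, where 0.0666% of all tested genes were (8 of 12009), 0.0333% in each direction. At an unadjusted p under 0.05 in limma there were 7 of the 37 genes (18.9%), against 13.6% of all tested genes: Mvk, Fdps, Nsdhl, Acaca, Fasn and Elovl6 on the lower side and Arl4c on the higher side. The same count was 10 genes with AEBDAC (27%, against 19.2%) and 12 with MTOAC (32.4%, against 24.4%). Same-numbered CPC and Vehicle libraries deviated together. A fit with the replicate block called 1 of the 37 genes, Arl4c, and 184 of the 12009 tested genes. The limma adjusted p of Arl4c was 0.0304 with the block and 0.197 without it, in a range of 0.026 to 0.474 over its alternatives.

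The groups of 3 libraries did not overlap for more genes than were called. The lower side had 9 of the 37 genes with CPC (24.3%, against 18% of all tested genes), 8 with AEBDAC (21.6%, against 19.2%) and 9 with MTOAC (24.3%, against 22.4%). The higher side had 2 genes with each compound (5.41%), against 2.58% of all tested genes for CPC, 5.65% for AEBDAC and 3.99% for MTOAC. On the lower side these shares lie near those of all tested genes. Fitted differences were below 0 for 25, 24 and 26 of the 37 genes with CPC, AEBDAC and MTOAC (67.6%, 64.9% and 70.3%), against 71%, 66.9% and 71.7% of all tested genes. The median of the 37 genes lay at -0.20 with CPC, -0.10 with AEBDAC and -0.20 with MTOAC, and the median tested gene at -0.17, -0.16 and -0.22, so that the median of the 37 genes lay within 0.06 of it with each compound. All 3 comparisons share the Vehicle libraries.

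**Figure D2:**
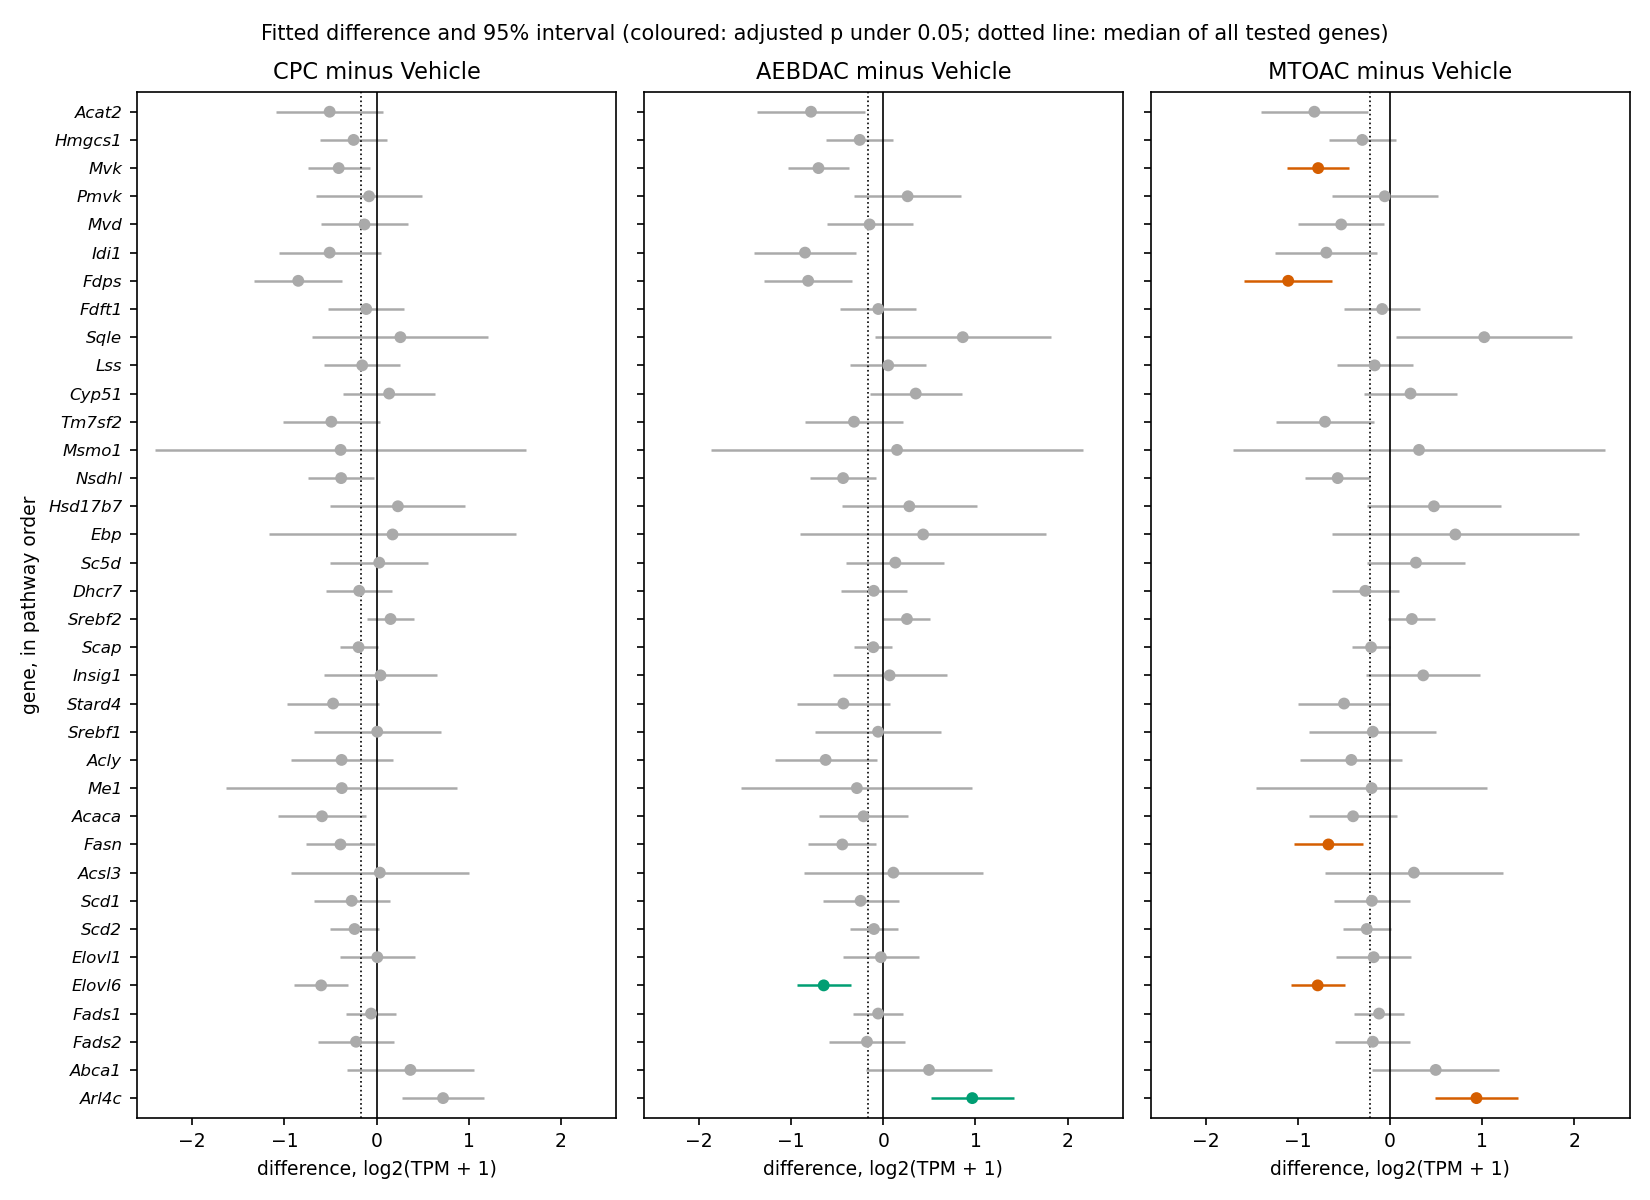
Fitted difference from Vehicle on the log2(TPM + 1) scale with its 95% interval, for CPC, AEBDAC and MTOAC from left to right, genes in pathway order from top to bottom. Coloured points have an adjusted p under 0.05, grey points do not, the dotted line is the median of all tested genes, and Elovl5, whose interval is over 6 log2 wide, is left out. Mevalonate genes sit mostly left of the dotted line and the sterol genes after them on both sides of it.

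The promoters of 30 of the 37 genes were matched in RefSeq (GRCm38.p6), in 38 windows of 250 bases before a start site. SREBP factors bind sterol regulatory elements together with NF-Y, which binds the CCAAT box, and Sp1, which binds GC-rich sites. The windows below belong to the genes called with MTOAC that have an entry, Fdps being unmatched, and to Hmgcs1, the only one of the 30 with a match to a sterol regulatory element. They are shown because they show how far these genes differ in such letters. Each is 5′ to 3′ on the gene's own strand, and capitals mark CCAAT on either strand (read as ATTGG when it is on the other one) and TCACNCCAC. Bases that GENCODE places in an exon of a protein-coding gene were left out, which took off 42 bases where Mmab begins upstream of Mvk, 31 at Elovl6 and 30 at Arl4c. The windows are chr5:114444061-114444268 on the plus strand for Mvk, chr11:120824548-120824797 on the minus strand for Fasn, chr3:129532136-129532354 on the plus strand for Elovl6, chr1:88702222-88702441 on the minus strand for Arl4c and chr13:119690101-119690350 on the plus strand for Hmgcs1.
Mvk: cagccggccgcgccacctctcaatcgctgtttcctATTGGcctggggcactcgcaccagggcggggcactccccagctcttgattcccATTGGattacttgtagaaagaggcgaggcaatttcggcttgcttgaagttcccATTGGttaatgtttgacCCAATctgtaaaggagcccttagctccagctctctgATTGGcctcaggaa
Fasn: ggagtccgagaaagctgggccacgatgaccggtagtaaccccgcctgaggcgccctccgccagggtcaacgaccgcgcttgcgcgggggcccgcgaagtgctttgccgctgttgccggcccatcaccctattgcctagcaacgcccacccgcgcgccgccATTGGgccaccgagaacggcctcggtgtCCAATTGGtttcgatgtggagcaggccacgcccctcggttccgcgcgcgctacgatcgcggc
Elovl6: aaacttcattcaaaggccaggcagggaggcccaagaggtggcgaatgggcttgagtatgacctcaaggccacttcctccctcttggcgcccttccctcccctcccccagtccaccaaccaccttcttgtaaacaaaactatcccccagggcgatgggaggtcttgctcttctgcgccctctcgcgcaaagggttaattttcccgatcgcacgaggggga
Arl4c: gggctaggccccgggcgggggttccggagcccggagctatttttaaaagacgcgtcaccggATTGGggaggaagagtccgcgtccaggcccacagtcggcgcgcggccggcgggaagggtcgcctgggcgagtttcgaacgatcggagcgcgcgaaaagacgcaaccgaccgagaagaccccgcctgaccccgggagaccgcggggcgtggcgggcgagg
Hmgcs1: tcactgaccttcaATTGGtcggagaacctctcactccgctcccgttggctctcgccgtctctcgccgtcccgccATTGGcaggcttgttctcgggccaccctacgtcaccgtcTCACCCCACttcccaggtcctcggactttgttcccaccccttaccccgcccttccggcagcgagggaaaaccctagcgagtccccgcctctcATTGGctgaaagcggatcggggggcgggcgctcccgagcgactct

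Mvk had 5 CCAAT boxes in this window, the nearest 14 bases before the start. Fasn had 3, of which 2 overlap on opposite strands. Hmgcs1 had 3 and the single sterol element, 137 bases before its start. Arl4c had 1 and Elovl6 none. Over all member windows CCAAT was found in 24 of 38 (63.2%), against 33.8% of 32851 windows of the same length over the genome's genes, and at least 2 CCAAT boxes in 28.9% against 10.1%. The Sp1 letters GGGCGG were in 73.7% against 32.7%, the E-box CACGTG in 18.4% against 6.02%, the sterol element TCACNCCAC in 2.63% against 1.05% and the ATF4 composite letters TGATGNAA in 2.63% against 3.45%. Both strands were searched and every match counted, including any that overlaps another motif. The windows of 1 gene overlap where it has several starts, and a match is only a match of letters. The windows compared were not limited to genes that passed the filter on low values, as all members did. They were not matched for base content either, and what the differences in share rest on was not tested.

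The mevalonate steps, from acetyl-CoA to farnesyl diphosphate, lay lowest of the pathway's sections with every compound. Their median difference was -0.41 with CPC, -0.70 with AEBDAC and -0.69 with MTOAC. Relative to the median tested gene that is -0.24, -0.54 and -0.47, and with quantile normalization -0.26, -0.53 and -0.55. Without Vehicle 1 it was -0.30, -0.52 and -0.64. All 7 genes were below 0 with CPC and MTOAC and 6 of 7 with AEBDAC. Of all tested genes 71% were below 0 with CPC, 71.7% with MTOAC and 66.9% with AEBDAC. The calls were none of 7 with CPC and AEBDAC and 2 of 7 with MTOAC, against 0.0666%, 1.27% and 6.54% of all tested genes.

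Acat2, which joins acetyl-CoA units at the start of the pathway, averaged 10.6 ± 3.47, 8.39 ± 1.82 and 8.20 ± 2.11 TPM with CPC, AEBDAC and MTOAC, against 15.1 ± 1.97 TPM with Vehicle. No compound library reached the lowest Vehicle library, and no adjusted p passed (0.084 at the lowest, with MTOAC). Hmgcs1, which makes HMG-CoA and is a classic SREBP2 target, stood at 702, 749 and 674 TPM in CPC 1 to 3, 618, 739.7 and 763 TPM in AEBDAC 1 to 3 and 571, 655 and 848 TPM in MTOAC 1 to 3, against 1033, 789 and 729.6 TPM in Vehicle 1 to 3. The groups overlapped with every compound. Its differences were -0.25, -0.26 and -0.30 (SE 0.16 each), with adjusted p of 0.533, 0.426 and 0.291 in limma. Without Vehicle 1 they were -0.10, -0.11 and -0.15.

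Mvk, mevalonate kinase (ENSMUSG00000041939.14, mm10 chromosome 5, 114444269 to 114460591, plus strand), stood at 36.1, 24.4 and 29.1 TPM in CPC 1 to 3, 22.6, 23.3 and 25.9 TPM in AEBDAC 1 to 3 and 24.4, 21.1 and 22.4 TPM in MTOAC 1 to 3, against 34.9, 43.8 and 40.4 TPM in Vehicle 1 to 3. Every AEBDAC and MTOAC library lay below every Vehicle library, while CPC 1 lay among the Vehicle values. Mvk fell with MTOAC by 0.78 on the log2 scale (SE 0.15, limma adjusted p = 0.0181). The difference was -0.70 with AEBDAC (adjusted p = 0.0525, or 0.0407 with a filter of at least 5 TPM, in a range of 0.0281 to 0.212) and -0.41 with CPC (adjusted p = 0.289). The MTOAC call was lost without Vehicle 2 (adjusted p = 0.0596), Vehicle 3 (0.0519) or MTOAC 2 (0.0688) and with quantile normalization (0.124), within a range over its alternatives of 0.0123 to 0.124.

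Pmvk and Mvd carry the next phosphorylation and the decarboxylation. Pmvk was near the floor of detection, averaging 1.33 ± 0.63, 1.89 ± 0.157 and 1.34 ± 0.385 TPM with CPC, AEBDAC and MTOAC, against 1.44 ± 0.483 TPM with Vehicle. Mvd averaged 74.996 ± 8.43, 74.2 ± 9.44 and 57.1 ± 11.99 TPM, against 84.3 ± 23.2 TPM, and its groups overlapped (adjusted p = 0.152 with MTOAC). Idi1, the isomerase that makes the second isoprenoid unit, averaged 249.7 ± 37.2, 196 ± 17.9 and 227 ± 82.5 TPM, against 365 ± 119 TPM with Vehicle. All CPC and AEBDAC libraries lay below all Vehicle libraries for Idi1, whereas MTOAC 3, at 322 TPM, lay among them, and no adjusted p passed (0.107 at the lowest, with AEBDAC).

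Fdps, farnesyl diphosphate synthase, which feeds both sterols and protein prenylation (ENSMUSG00000059743.12, mm10 chromosome 3, 89093588 to 89101959, minus strand), stood at 44.6, 34.8 and 62.0 TPM in CPC 1 to 3, 51.1, 44.7 and 45.3 TPM in AEBDAC 1 to 3 and 44.1, 38.9 and 32.6 TPM in MTOAC 1 to 3, against 66.9, 80.6 and 108 TPM in Vehicle 1 to 3. Every compound library lay below every Vehicle library. Fdps fell with MTOAC by 1.11 on the log2 scale (SE 0.22, limma adjusted p = 0.0184), the widest difference among the members in that comparison. It was at -0.85 with CPC (adjusted p = 0.165) and -0.82 with AEBDAC (adjusted p = 0.0848). The MTOAC call was lost without Vehicle 3 (0.0547) or MTOAC 2 (0.0597) and with quantile normalization (0.0715), within a range of 0.0128 to 0.0968. Fdps shares 1124 exon bases on the same strand with the gene model Gm43738, which was listed at 0 to 0.362 TPM, and how reads were split between these genes is uncertain.

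**Figure D3:**
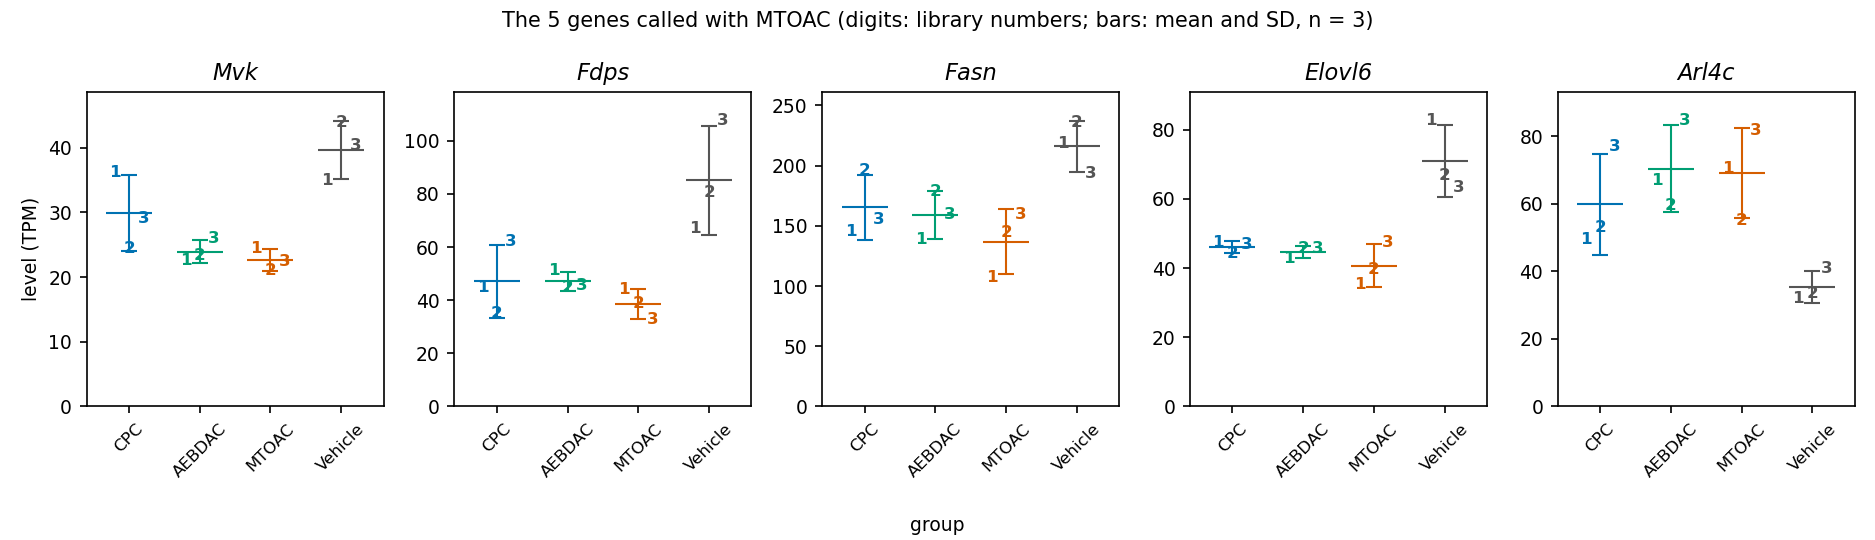
Level in TPM of the 5 genes called with MTOAC, in CPC, AEBDAC, MTOAC and Vehicle from left to right. Digits are the library numbers and bars the mean and SD of 3 libraries; all axes start at 0. For Fdps and Elovl6 all 9 compound libraries lie below the 3 Vehicle libraries, and for Arl4c all 9 lie above them.

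Past farnesyl diphosphate none of the 11 genes of the sterol steps was called. Their median difference was -0.11 with CPC, 0.13 with AEBDAC and 0.22 with MTOAC. Below 0 were 6, 4 and 5 of the 11 genes, against 71%, 66.9% and 71.7% of all tested genes. Relative to the median tested gene these medians are 0.06, 0.29 and 0.44, with quantile normalization 0.02, 0.26 and 0.29, and without Vehicle 1 0.17, 0.30 and 0.45. Whether the sterol and mevalonate steps differ was not tested, and single genes lay on both sides of Vehicle. Fdft1, squalene synthase, averaged 126 ± 3.09, 133 ± 21.2 and 130.0 ± 23.9 TPM with CPC, AEBDAC and MTOAC, against 139 ± 34.5 TPM with Vehicle. Sqle, squalene epoxidase and a rate-limiting step, stood at 6.03, 14.4 and 4.97 TPM in CPC 1 to 3, 6.52, 16.1 and 16.6 TPM in AEBDAC 1 to 3 and 8.29, 19.9 and 15.2 TPM in MTOAC 1 to 3, against 7.42, 6.89 and 4.67 TPM in Vehicle 1 to 3. The MTOAC libraries all lay above the Vehicle libraries, with a difference of 1.02 (SE 0.44, limma adjusted p = 0.175), and the other compounds overlapped them.

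Lss, which closes the ring to lanosterol, averaged 66.9 ± 11.9, 78.1 ± 17.2 and 66.4 ± 11.2 TPM, against 74.1 ± 5.09 TPM with Vehicle. Cyp51, which removes a methyl group from lanosterol, averaged 268 ± 65.6, 313 ± 81.8 and 282 ± 51.1 TPM, against 239.9 ± 28.4 TPM with Vehicle, with groups that overlapped. Tm7sf2, a sterol reductase that acts after Cyp51, averaged 12.2 ± 3.02, 13.9 ± 3.61 and 10.2 ± 1.31 TPM, against 17.5 ± 4.00 TPM, and all MTOAC libraries lay below all Vehicle libraries (adjusted p = 0.0986). It shares 532 exon bases on the same strand with Vps51, so its reads are uncertain. Msmo1, the sterol methyl oxidase, ranged 15.4-fold over the 12 libraries: MTOAC 3, at 109 TPM, and Vehicle 1, at 198 TPM, stood far above the other 10 libraries, which lay between 12.8 and 52.5 TPM.

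Nsdhl, the dehydrogenase that acts next on the methyl sterols, had the smallest p of the sterol steps. It stood at 91.0, 107 and 105 TPM in CPC 1 to 3, 79.3, 107 and 107 TPM in AEBDAC 1 to 3 and 71.2, 100.7 and 96.6 TPM in MTOAC 1 to 3, against 147, 122 and 127 TPM in Vehicle 1 to 3. All 9 compound libraries lay below the Vehicle libraries. The differences were -0.38, -0.44 and -0.57 (SE 0.16 each), and the adjusted p in limma was 0.343, 0.18 and 0.0587, so it was not called. With a filter of at least 5 TPM it passed with MTOAC (adjusted p = 0.0492), in a range of 0.0297 to 0.167 over its alternatives.

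Of the last steps, Hsd17b7, the ketosteroid reductase, averaged 4.22 ± 1.25, 4.36 ± 0.991 and 5.55 ± 3.12 TPM, against 3.42 ± 0.884 TPM with Vehicle. Ebp, the sterol isomerase, was low throughout, from 0 TPM in CPC 1 to 6.74 TPM in MTOAC 2. Sc5d, the sterol desaturase, averaged 65.0 ± 2.81, 70.9 ± 15.5 and 78.7 ± 17.4 TPM, against 66.1 ± 23.6 TPM. Dhcr7, which makes cholesterol from its direct precursor, stood at 104, 126 and 146 TPM in CPC 1 to 3, 114, 143 and 141 TPM in AEBDAC 1 to 3 and 96.4, 130.5 and 129 TPM in MTOAC 1 to 3, against 161, 133 and 134 TPM in Vehicle 1 to 3. The MTOAC libraries lay below all Vehicle libraries and the others overlapped them, with differences of -0.19, -0.10 and -0.27 (SE 0.16 each) and adjusted p of 0.639, 0.777 and 0.344 in limma. Without Vehicle 1 they were -0.10, -0.013 and -0.18.

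**Figure D4:**
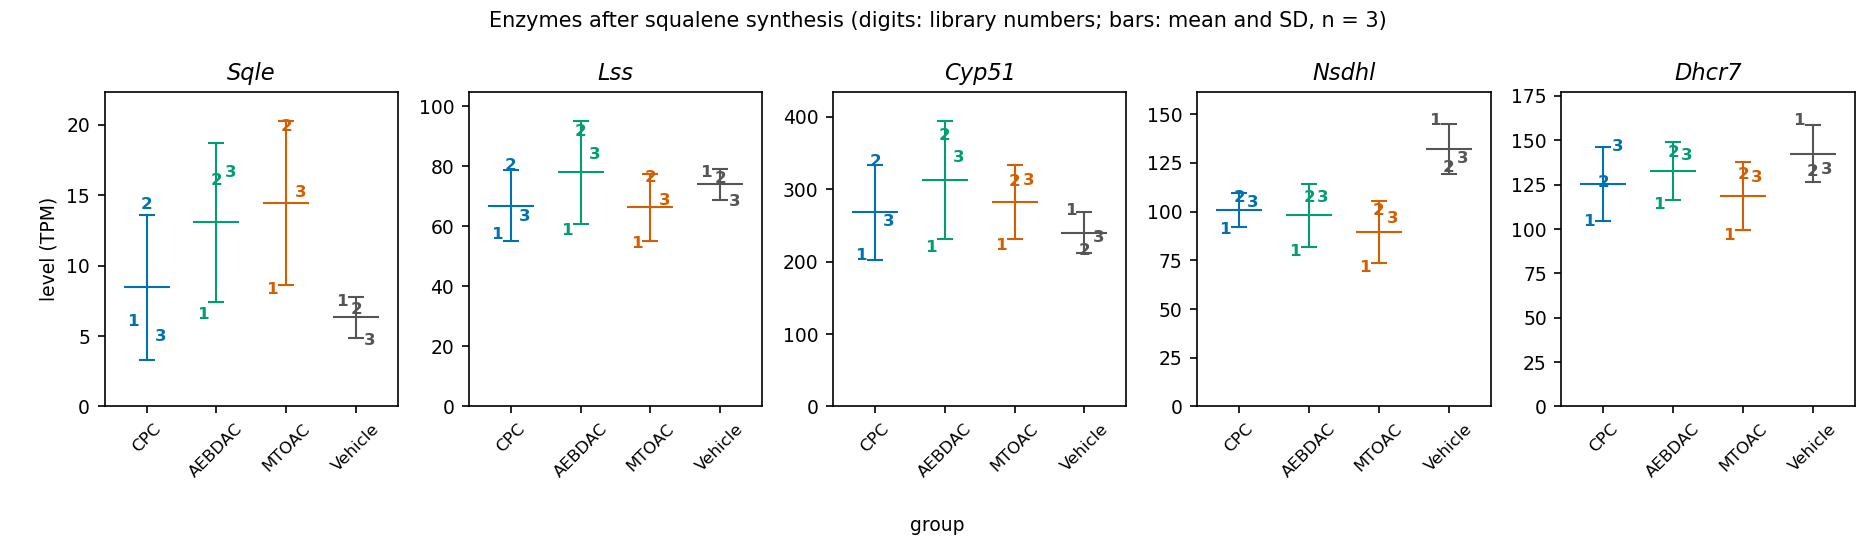
Level in TPM of 5 enzymes after squalene synthesis, in CPC, AEBDAC, MTOAC and Vehicle from left to right. Digits are the library numbers and bars the mean and SD of 3 libraries; all axes start at 0. Library 1 is the lowest of its group for Lss, Cyp51, Nsdhl and Dhcr7 with every compound, and Nsdhl is lower than Vehicle in all 9 compound libraries.

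The SREBP2 regulators and the sterol carrier Stard4 included no called gene. Srebf2, which encodes SREBP2, stood at 227, 229 and 226 TPM in CPC 1 to 3, 219, 247 and 270.0 TPM in AEBDAC 1 to 3 and 209.9, 239.6 and 279 TPM in MTOAC 1 to 3, against 213, 204 and 197 TPM in Vehicle 1 to 3. All CPC and AEBDAC libraries lay above all Vehicle libraries and MTOAC 1 among them. The differences were 0.15, 0.26 and 0.24 (SE 0.12 each), with adjusted p of 0.59, 0.258 and 0.239 in limma. Scap ranged 1.27-fold over the 12 libraries, averaging 62.5 ± 1.58, 66.5 ± 3.84 and 62.0 ± 1.05 TPM, against 71.8 ± 5.01 TPM with Vehicle. All CPC and MTOAC libraries lay below all Vehicle libraries for Scap, and AEBDAC overlapped them. No adjusted p passed in limma (0.205 at the lowest, with MTOAC).

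Insig1, the SREBP2 target that holds SCAP in the endoplasmic reticulum, stood at 7.75, 7.37 and 7.58 TPM in CPC 1 to 3, 8.17, 5.37 and 10.3 TPM in AEBDAC 1 to 3 and 10.2, 7.56 and 11.7 TPM in MTOAC 1 to 3, against 5.17, 6.55 and 11.32 TPM in Vehicle 1 to 3. The Vehicle libraries spanned nearly the whole range. Its differences were 0.04, 0.07 and 0.36 (SE 0.28 each), with adjusted p of 0.966, 0.926 and 0.470 in limma. The direction turned with CPC to -0.17 without Vehicle 1 and -0.03 without Vehicle 2, and with AEBDAC to -0.15, -0.0012 and -0.12 without Vehicle 1, Vehicle 2 and AEBDAC 3. Stard4, which moves cholesterol between membranes, averaged 47.1 ± 6.74, 48.3 ± 5.21 and 47.1 ± 13.6 TPM, against 67.1 ± 19.9 TPM with Vehicle, where Vehicle 1 stood at 89.9 TPM.

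Of the 6 genes of fatty acid supply and synthesis, Fasn was called with MTOAC and no other gene with any compound. Their median difference was -0.38, -0.25 and -0.30 with CPC, AEBDAC and MTOAC, and without Vehicle 1 it was 0.03, 0.01 and -0.09. Srebf1, which encodes SREBP1, averaged 19.1 ± 4.38, 18.7 ± 6.14 and 16.98 ± 6.11 TPM, against 19.3 ± 5.76 TPM with Vehicle. In all 4 groups its highest value was in library 1 and its lowest in library 3. Acly, which makes acetyl-CoA from citrate, averaged 89.6 ± 8.73, 75.7 ± 11.2 and 90.7 ± 34.9 TPM, against 119.6 ± 34.6 TPM, and Me1, malic enzyme and a source of NADPH, 16.5 ± 5.98, 18.2 ± 8.23 and 20.1 ± 12.3 TPM, against 25.4 ± 20.4 TPM.

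Acaca, acetyl-CoA carboxylase, which commits carbon to fatty acids, averaged 28.7 ± 5.46, 37.3 ± 4.44 and 33.6 ± 11.1 TPM, against 43.5 ± 5.66 TPM with Vehicle. All CPC libraries lay below all Vehicle libraries (adjusted p = 0.289). Fasn (ENSMUSG00000025153.9, mm10 chromosome 11, 120805846 to 120824547, minus strand) stood at 145, 196 and 155 TPM in CPC 1 to 3, 138, 178 and 159.6 TPM in AEBDAC 1 to 3 and 107, 144 and 159.8 TPM in MTOAC 1 to 3, against 219, 236 and 194 TPM in Vehicle 1 to 3. The AEBDAC and MTOAC libraries all lay below the Vehicle libraries, and CPC 2 lay among them.

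Fasn fell with MTOAC by 0.67 on the log2 scale (SE 0.17, limma adjusted p = 0.0419). It was at -0.39 with CPC (adjusted p = 0.347) and -0.45 with AEBDAC (adjusted p = 0.187). The MTOAC call was lost without Vehicle 1, 2 or 3 (0.0985, 0.1, 0.0646), without MTOAC 1 or 2 (0.115, 0.0921) and with quantile normalization (0.0909), within a range of 0.0113 to 0.141, and it remained without MTOAC 3 (0.0399). Acsl3, which activates fatty acids for lipid synthesis, averaged 84.4 ± 17.5, 89.0 ± 20.5 and 111 ± 75.4 TPM, against 89.9 ± 51.4 TPM, with MTOAC 3 at 199 TPM and Vehicle 1 at 148 TPM.

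Among the desaturases and elongases Elovl6 fell with AEBDAC and with MTOAC and the other 6 genes were not called with any compound. Elovl6, which lengthens palmitate to stearate (ENSMUSG00000041220.10, mm10 chromosome 3, 129532355 to 129638495, plus strand), stood at 47.4, 44.1 and 46.8 TPM in CPC 1 to 3, 42.6, 45.8 and 45.6 TPM in AEBDAC 1 to 3 and 35.2, 39.7 and 47.3 TPM in MTOAC 1 to 3, against 82.6, 66.8 and 63.3 TPM in Vehicle 1 to 3. All 9 compound libraries lay below the 3 Vehicle libraries, with the highest compound library at 47.4 TPM. It fell with MTOAC by 0.79 on the log2 scale (SE 0.13, limma adjusted p = 0.0128) and with AEBDAC by 0.65 (SE 0.13, adjusted p = 0.0464), and was at -0.60 with CPC (SE 0.13, adjusted p = 0.127, or 0.0655 with the replicate block).

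Elovl6 had the smallest p of the 37 genes with each of the compounds. With MTOAC it was the only one of the 5 calls that remained in all 6 fits without 1 library (adjusted p from 0.0163 to 0.0478), and it was lost only when the MTOAC and Vehicle libraries were fitted alone (0.105). With AEBDAC the call was lost without Vehicle 1, 2 or 3 (0.119, 0.0963, 0.0754) and without AEBDAC 1, 2 or 3 (0.0818, 0.187, 0.155), within a range of 0.0153 to 0.187. The gene shares 34 exon bases with an antisense gene model.

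The stearoyl-CoA desaturases Scd1 and Scd2 are close paralogs, so how reads were split between the genes is uncertain. Scd2 stood at 688, 737 and 794 TPM in CPC 1 to 3, 757, 802 and 880.4 TPM in AEBDAC 1 to 3 and 664, 713 and 823 TPM in MTOAC 1 to 3, against 982, 775 and 868 TPM in Vehicle 1 to 3. The groups overlapped. Its differences were -0.24, -0.10 and -0.25 (SE 0.12 each), with adjusted p of 0.407, 0.685 and 0.219 in limma. Without Vehicle 1 they were -0.15, -0.016 and -0.17. Scd1 averaged 113 ± 7.72, 115 ± 15.6 and 120.4 ± 29.2 TPM, against 138 ± 30.5 TPM with Vehicle.

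Elovl1, an elongase of very long saturated chains, averaged 38.8 ± 2.38, 38.1 ± 5.69 and 34.3 ± 5.95 TPM, against 39.2 ± 9.31 TPM with Vehicle. Elovl5, an elongase of polyunsaturated chains, was listed at 3.98, 0 and 0.672 TPM in CPC 1 to 3, at 0 in all AEBDAC libraries and at 0, 0 and 21.4 TPM in MTOAC 1 to 3, against 44.3, 0 and 0.42 TPM in Vehicle 1 to 3. A value of 0 here may be a failed estimate, and no fold is given for it. Fads1, a desaturase of polyunsaturated fatty acids, averaged 137 ± 5.06, 137 ± 11.1 and 132 ± 12.1 TPM, against 144 ± 21.97 TPM with Vehicle. Fads2, the desaturase of the step before it, averaged 229 ± 0.917, 236 ± 9.44 and 237 ± 41.5 TPM, against 275 ± 86.1 TPM with Vehicle.

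Of the 2 genes grouped here as LXR targets, Arl4c rose with AEBDAC and MTOAC and Abca1 was called with no compound. Arl4c, a small GTPase gene (ENSMUSG00000049866.12, mm10 chromosome 1, 88673125 to 88702221, minus strand), stood at 49.5, 53.0 and 77.0 TPM in CPC 1 to 3, 66.8, 59.6 and 84.6 TPM in AEBDAC 1 to 3 and 70.5, 55.1 and 81.8 TPM in MTOAC 1 to 3, against 31.996, 33.3 and 40.8 TPM in Vehicle 1 to 3. All 9 compound libraries lay above all 3 Vehicle libraries. It rose by 0.97 on the log2 scale with AEBDAC (SE 0.20, limma adjusted p = 0.0484) and by 0.94 with MTOAC (SE 0.20, adjusted p = 0.0269), and was at 0.72 with CPC (SE 0.20, adjusted p = 0.197, or 0.0304 with the replicate block).

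The AEBDAC call of Arl4c was lost without Vehicle 1, 2 or 3 (adjusted p = 0.143, 0.112, 0.0754) and without AEBDAC 1, 2 or 3 (0.0726, 0.163, 0.184), within a range of 0.00511 to 0.184. The MTOAC call was lost without Vehicle 1 or 2 (0.0751, 0.0676) and without MTOAC 1 or 3 (0.0714, 0.0612), within a range of 0.00256 to 0.0974. Abca1, the cholesterol exporter and a leading LXR target, was low. It stood at 2.64, 1.36 and 1.94 TPM in CPC 1 to 3, 2.53, 1.55 and 2.67 TPM in AEBDAC 1 to 3 and 2.08, 1.21 and 3.85 TPM in MTOAC 1 to 3, against 1.66, 1.12 and 1.09 TPM in Vehicle 1 to 3, and the groups overlapped. Its differences were 0.37, 0.50 and 0.49, and its adjusted p was 0.633, 0.417 and 0.364.

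Between the compounds none of the 37 genes was called in any of the 3 pairs, and none of the 12009 tested genes was (0%). At an unadjusted p under 0.05 limma gave 0 of the 37 genes for AEBDAC against CPC, 1 for MTOAC against CPC, which was Mvk, and 0 for MTOAC against AEBDAC, with 211, 449 and 307 of all tested genes (1.76%, 3.74% and 2.56%). The concentrations are not given and may differ between the compounds. The Mvk difference between MTOAC and CPC was -0.37, with a 95% interval of -0.71 to -0.03, and that between AEBDAC and CPC -0.29 (-0.63 to 0.04).

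For Elovl6 the difference was -0.05 between AEBDAC and CPC (-0.34 to 0.25), -0.19 between MTOAC and CPC (-0.48 to 0.11) and -0.14 between MTOAC and AEBDAC (-0.43 to 0.16). For Arl4c it was 0.24 (-0.20 to 0.69), 0.21 (-0.23 to 0.66) and -0.03 (-0.48 to 0.42), and for Fdps 0.03 (-0.45 to 0.51), -0.26 (-0.74 to 0.22) and -0.29 (-0.77 to 0.19). All adjusted p for the 37 genes were 1. The median half-width of the 37 intervals was 0.48 on the log2 scale, so these data do not show that the compounds acted alike. A call with 1 compound and not another is not a difference between them.

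Several genes shared a pattern over libraries that the groups do not explain. Library 1 was the lowest of its 3 in all 3 compound groups for 10 of the 37 genes (27%), against 8.07% of all tested genes: Lss, Cyp51, Nsdhl, Hsd17b7, Sc5d, Dhcr7, Fasn, Scd1, Scd2 and Fads1. MTOAC 3 and Vehicle 1 were the 2 highest of the 12 libraries for 12 genes (32.4%), against 14.4% of all tested genes: Hmgcs1, Idi1, Fdft1, Msmo1, Sc5d, Stard4, Acly, Me1, Acsl3, Scd1, Elovl5 and Fads2. The astrocyte marker Gja1 went with the library number in all 4 groups, at 34.1 to 39.0 TPM in libraries numbered 1, 12.03 to 14.7 TPM in those numbered 2 and 1.54 to 2.14 TPM in those numbered 3. S100b, another astrocyte marker, went with the number in a different order. It stood at 11.8 to 27.6 TPM in libraries numbered 1, 3.84 to 5.94 TPM in those numbered 2 and 24.8 to 34.4 TPM in those numbered 3. Gfap, Aqp4, Aldh1l1 and Slc1a3 kept no single order over the 4 groups. Of 6 pluripotency markers, Pou5f1 was listed at 9.64 TPM in MTOAC 3 and 7.83 TPM in Vehicle 1 and at 0 in the other 10. The rest of that list did not share this pattern. Esrrb was at 3.79 TPM in MTOAC 3 and 2.89 TPM in Vehicle 1, its lowest value of the 12 libraries. Nanog, Zfp42, Dppa5a and Utf1 stayed under 1 TPM in every library. These patterns were noticed in these data and are given without a test, and their part in the differences above was not tested.

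**Figure D5:**
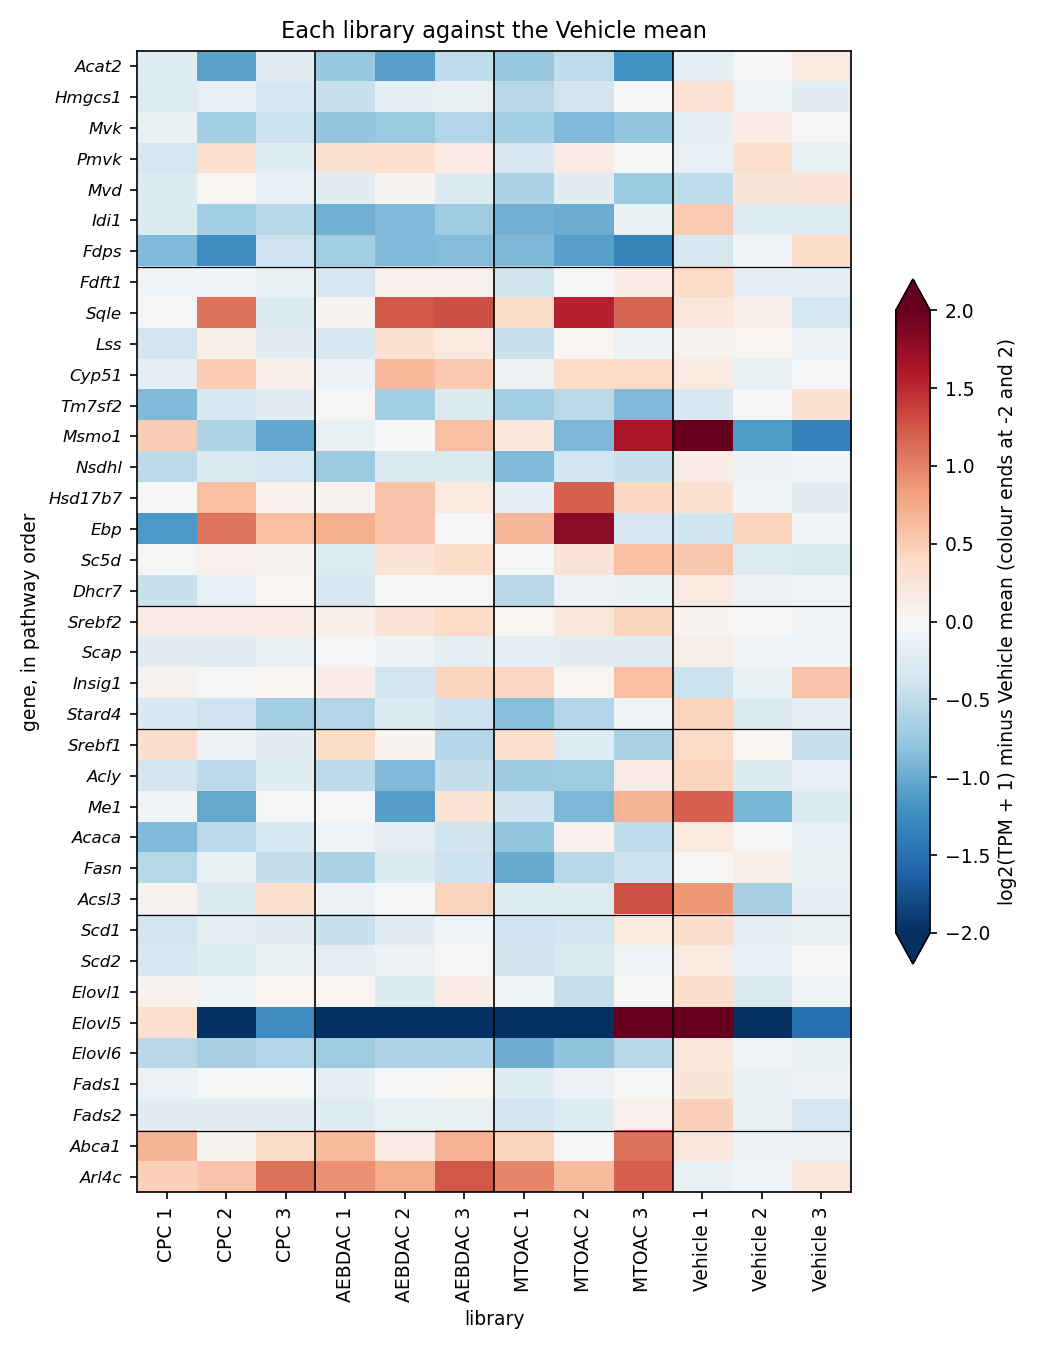
Each library's log2(TPM + 1) minus the Vehicle mean, with the 37 genes in pathway order from top to bottom and the libraries of CPC, AEBDAC, MTOAC and Vehicle from left to right. Blue is lower and red higher, and the colours end at -2 and 2. Mvk, Fdps and Elovl6 are blue and Arl4c red across the compound libraries, while Msmo1 and Elovl5 stand out in MTOAC 3 and Vehicle 1.

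Other genes of the same pathways were looked at in 4 lists of 81 genes, of which 79 were in the tables and 67 were tested. None of the 67 was called with CPC or with AEBDAC, and with MTOAC 4 fell (5.97%, against 5.75% of all tested genes) and none rose. Nfya, which encodes a subunit of the CCAAT-binding factor NF-Y, stood at 12.3, 17.8 and 13.8 TPM in MTOAC 1 to 3, against 22.4, 22.1 and 27.1 TPM in Vehicle 1 to 3 (-0.68, SE 0.17, limma adjusted p = 0.0405). Rnf145, a ubiquitin ligase that acts on SCAP, stood at 30.4, 23.8 and 31.97 TPM, against 61.7, 56.8 and 56.6 TPM (-1.01, SE 0.24, adjusted p = 0.0366). Mcat, an acyltransferase of mitochondrial fatty acid synthesis, stood at 13.6, 9.29 and 8.61 TPM, against 20.5, 19.7 and 27.7 TPM (-1.05, SE 0.25, adjusted p = 0.037). The MTOAC and Vehicle libraries did not overlap for any of these 3. The median of the 67 genes was -0.24 with MTOAC, beside -0.22 for all tested genes. The list of other LXR and oxysterol genes had 9 tested genes. None of these 9 was called with any compound, and their median was -0.16 with CPC, -0.07 with AEBDAC and -0.35 with MTOAC. That list does not hold every LXR target, and genes placed in other lists or sections may be LXR targets too.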

How the data were processed

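The authors deposited 1 table per library of TPM values for 35385 gene symbols. The submitters' processing notes name Salmon and the build mm10, with neither a version of Salmon nor an annotation. Per the labels, libraries were poly(A)-selected and read as 150 bp pairs, and the kit is not said to mark strand. TPM keep no depth, and a rise of abundant transcripts lowers all others.

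Groups came from the treatment labels. The deposited TPM were taken to log2(TPM + 1), so differences understate changes of low genes. Symbols that reached 1 TPM in 3 or more libraries, 12009 in all, were tested with limma 3.58.1 (R 4.3.3, trend and robust moderation, two-sided) in 1 fit of all 12 libraries, without covariates. With 3 libraries on each side, the smallest p an exact permutation test allows is 0.1. The method was tested on simulated libraries with independent noise, without a pattern by library number or an outlying library such as Vehicle 1. No 2 libraries held identical values. Overlaps come from GENCODE M21.

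The members and lists were chosen with earlier results of these data known. By rule, library values are given for called members, the smallest p of each section, and Srebf2, Insig1, Hmgcs1, Dhcr7, Fasn and Scd2, and called genes of the other lists are named; other library values were added after they were seen, and 1 gene the rule names is not reported here. Same-numbered libraries were taken as paired where every correlation of their deviations across genes was over 0.1. The numbers come from the titles, with no word on shared cultures. The rule held between CPC and Vehicle (0.34, 0.31, 0.23), between AEBDAC and CPC (0.28, 0.42, 0.23) and between MTOAC and AEBDAC (0.33, 0.36, 0.30). It was read for each pair of groups alone, so a pair that failed it is not shown to be unpaired.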

Additional observations from a re-analysis of the deposited data

How the results depend on the processing

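Of 495 alternatives for single genes, 436 kept direction and side of the threshold, 46 lost a call, 7 gained one and 6 turned direction without a call, all of them with 1 library left out: Insig1 with CPC (-0.17 without Vehicle 1, -0.03 without Vehicle 2) and AEBDAC (-0.15, -0.0012 and -0.12 without Vehicle 1, Vehicle 2 and AEBDAC 3), and Dhcr7 with AEBDAC (0.0031 without AEBDAC 1). Only the calls given above can be lost, each with 15 alternatives, and the 436 include genes that were not called. Of its 15 alternatives, the MTOAC call was kept in 14 for Elovl6, 10 for Fdps, 9 for Mvk, 9 for Arl4c and 6 for Fasn. The AEBDAC call was kept in 6 for Elovl6 and 5 for Arl4c. Without 1 library Insig1 ran from -0.17 to 0.33 with CPC and Dhcr7 from -0.16 to 0.0031 with AEBDAC. Members called without 1 library numbered 0 to 0 with CPC and AEBDAC and 2 to 5 with MTOAC, the lowest without Vehicle 2, Vehicle 3 or MTOAC 2. Members called with AEBDAC were 0 with no filter, 1 after rescaling without mitochondrially encoded genes, 0 with only those 2 groups and 0 without robust and trend moderation. With MTOAC they were 3 with no filter, 2 with quantile normalization and 0 with only the 2 groups; with CPC 1 with the replicate block, alone or with quantile normalization. Tested genes called, 8, 153 and 785 with CPC, AEBDAC and MTOAC, became 38 and 404 for the last 2 with no filter, 16 and 430 for CPC and MTOAC with quantile normalization, 0, 3 and 17 with only the 2 groups, and 1 and 75 for CPC and AEBDAC without robust and trend moderation. With the replicate block they were 184, 1072 and 1904, and with the block and quantile normalization 115, 907 and 1194. Without 1 library they ran from 1 to 5, 9 to 104 and 149 to 573. Between compounds, 1 gene was called for AEBDAC against CPC with no filter or only the 2 groups, 1 for MTOAC against AEBDAC with only the 2 groups, and 1 for MTOAC against CPC with no filter and in the highest of the fits without 1 library (0 to 1). The median member relative to the median gene ran without 1 library from -0.08 to -0.0049 with CPC, 0.0079 to 0.08 with AEBDAC and -0.06 to 0.11 with MTOAC, and from -0.019 to 0.0955 for AEBDAC against CPC, -0.0195 to 0.17 for MTOAC against CPC and -0.07 to 0.08 for MTOAC against AEBDAC. Fits of only 2 groups have fewer libraries for the spread; the cause of the other changes was not tested. AEBDAC and MTOAC did not meet the pairing rule against Vehicle (correlations 0.08, 0.25 and 0.03, and -0.03, 0.35 and -0.19), and there the block gained Mvk with AEBDAC (adjusted p = 0.0281) and Nsdhl with MTOAC (0.0298), as did the filter of at least 5 TPM (0.0407 and 0.0492), for 3 and 6 members called under either. The block with quantile normalization called 5 with MTOAC, Arl4c and Sqle (0.0354) higher and Elovl6, Fasn and Nsdhl lower. Mvd was gained without Vehicle 1 and Idi1 without MTOAC 3. Depth is unknown, so low genes such as Pmvk, Ebp and Abca1 carry an unknown counting error.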
